A study of Mus musculus with 35 samples.

Results

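Fibroblast-only H3K27ac regions are stretches of the genome that carried acetylation of histone H3 at lysine 27 (H3K27ac) in mouse embryonic fibroblasts (MEF) and had no H3K27ac peak at any later stage of their conversion to pluripotent cells. They were found by merging all peaks of the 12 H3K27ac libraries that share at least 1 bp, on chromosomes 1 to 19 and X. A merged region was kept if both MEF libraries had a peak in it and none of the 10 libraries of day 3, day 6, day 9 and embryonic stem cells (ESC) had one. This gave 31659 regions of 179334 merged regions in all, and 52.8% of the 59951 regions with a peak in both MEF libraries. The number depends on the lists: it was 4497 (29.4% of MEF regions) with the same number of best peaks from each library, 17090 with the best 50% of each list, and 51019 or 50702 without MEF replicate 1 or 2. The regions were thus chosen by their H3K27ac peaks, and all their H3K27ac values are given as a description. KLF4 peaks, position and sequence took no part in the choice.

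The MEF came from C57BL/6 x 129 mice with the OKSM cassette (Pou5f1, Klf4, Sox2 and Myc) in the Col1a1 locus and the doxycycline-dependent activator M2rtTA in ROSA26. The 2 MEF libraries were unsorted cells in MEF medium without doxycycline. Day 3, day 6 and day 9 cells had the same genotype and grew in ESC medium, with doxycycline at 1 µg/ml and with ascorbic acid at 50 µg/ml. Day 3 cells were unsorted, and cells of day 6 and day 9 had been sorted for the surface antigen SSEA1, so time and sorting cannot be told apart after day 3. The ESC were unsorted cells of line V6.5, labelled with the same strain and no cassette, grown in ESC medium on irradiated feeder cells. The 2i libraries came from V6.5 cells given in addition 1 µM MEK inhibitor and 3 µM GSK3 inhibitor. H3K27ac was measured in 2 MEF, 3 day 3, 3 day 6, 2 day 9 and 2 ESC libraries, and KLF4 in 10 libraries, 2 at each later stage and 2 in 2i. KLF4 was not measured in MEF here.

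H3K27ac lies on active promoters and enhancers, and distal acetylated sites differ between cell types more than promoters do. Fibroblast enhancers hold genes of the extracellular matrix and of the mesenchymal state in an active form, and lose acetylation while the fibroblast program is shut down in reprogramming. KLF4 is a zinc finger factor that binds GC-rich letters of the CACCC kind. It is part of the pluripotency network of ESC and a member of the induced cassette.

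The H3K27ac lists held 88070 and 88347 peaks in MEF, 41471 to 50836 at day 3, 17493 to 22462 at day 6, 43974 and 45506 at day 9, and 81971 and 81231 in ESC. The KLF4 lists held 21129 to 34640 peaks. Sequencing depth is unknown, and where no peak is listed some signal may still be present. By the batch label, H3K27ac libraries of MEF and ESC were all DG-3458, both of day 9 were EA-3702, and day 3 and day 6 had both labels. As a check of the label, all 7 fibroblast markers (Col1a1, Col1a2, Col3a1, Pdgfrb, Thy1, Twist2 and Prrx1) had a region with a peak in both MEF libraries within 2.5 kb, with a median best fold enrichment of 28.3 in MEF replicate 1. Such a region was also found at 2 of 5 muscle, 4 of 5 endothelial, 4 of 4 blood, 2 of 4 neural and 3 of 4 pluripotency markers. Their median best folds were 0 (a gene without a region taken as 0), 6.14, 10.3, 1.22 and 4.66. At Nanog a merged region reached within 2.5 kb of the gene, but neither MEF library had a peak in that window. Its fold of 16.6, from a MEF peak outside the window, is part of the pluripotency median. The part of other cell types in the fibroblast-only regions was not tested. Labels do not say whether the libraries of a group came from separate cultures or animals, so p-values measure only the spread between libraries.

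The promoters of 4 fibroblast-only regions are shown as examples. They are the 4 with the best MEF score ranks among regions over a RefSeq promoter window (300 bases, most of them upstream of a gene start, build GRCm38.p6). KLF4 took no part in this choice. The 4 regions ranged from no KLF4 library to all 10, while 95.5% of all fibroblast-only regions had a KLF4 peak in none. Capitals mark matches of the AP-1 letters TGANTCA and of the KLF letters CCNCNCCC on either strand, where N is any base. Overlapping KLF matches run together.
Il1r1, chr1:40224830-40225129, plus strand: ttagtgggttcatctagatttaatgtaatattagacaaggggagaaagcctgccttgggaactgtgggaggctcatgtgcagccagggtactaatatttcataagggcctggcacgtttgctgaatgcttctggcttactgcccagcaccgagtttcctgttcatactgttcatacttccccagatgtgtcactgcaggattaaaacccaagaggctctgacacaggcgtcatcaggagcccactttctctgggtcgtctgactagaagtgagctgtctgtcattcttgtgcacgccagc
Speg, chr1:75399835-75400134, plus strand: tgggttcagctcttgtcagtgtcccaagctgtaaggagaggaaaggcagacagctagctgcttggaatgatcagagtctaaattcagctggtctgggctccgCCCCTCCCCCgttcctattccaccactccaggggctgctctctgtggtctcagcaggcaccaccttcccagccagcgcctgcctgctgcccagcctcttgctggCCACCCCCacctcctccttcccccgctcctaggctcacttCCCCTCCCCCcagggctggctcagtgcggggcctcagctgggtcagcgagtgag
Gm6634, chr3:70807242-70807541, minus strand: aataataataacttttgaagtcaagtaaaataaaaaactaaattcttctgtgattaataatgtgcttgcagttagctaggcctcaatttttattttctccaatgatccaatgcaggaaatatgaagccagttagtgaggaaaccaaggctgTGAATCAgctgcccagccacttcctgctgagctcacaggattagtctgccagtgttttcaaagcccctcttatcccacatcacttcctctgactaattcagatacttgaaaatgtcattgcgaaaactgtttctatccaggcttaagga
Col5a3, chr9:20815018-20815317, minus strand: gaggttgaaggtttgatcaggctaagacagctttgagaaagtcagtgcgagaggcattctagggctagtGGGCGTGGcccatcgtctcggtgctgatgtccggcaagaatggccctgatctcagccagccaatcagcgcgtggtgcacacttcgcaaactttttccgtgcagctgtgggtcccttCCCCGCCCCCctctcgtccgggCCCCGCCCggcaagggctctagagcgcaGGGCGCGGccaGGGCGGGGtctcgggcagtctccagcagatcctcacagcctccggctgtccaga

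The window of Il1r1, a receptor of interleukin 1, held no match of either kind, and its region had no KLF4 peak in any library. The window of Speg, a striated muscle kinase, held 5 KLF matches and its region had a KLF4 peak in 3 of 10 libraries, with folds of 2.56, 2.74 and 4.12. The window of Gm6634 held 1 AP-1 match, and no KLF4 peak was listed in its region. The window of Col5a3, a chain of type V collagen, held 6 KLF matches and 20 CpG dinucleotides, against 5 CpG in that of Il1r1, 6 in that of Speg and 1 in that of Gm6634. Its region, chr9:20809426-20815859, had a KLF4 peak in all 10 libraries. H3K27ac fold enrichment in the 2 MEF libraries was 32.6 and 36.6 at Il1r1, 29.8 and 27.4 at Speg, 33.2 and 33.3 at Gm6634, and 33.1 and 32.7 at Col5a3. The choice by MEF rank fixed that these values are high. A fibroblast-only region lay over the promoter window of 347 protein-coding genes. Of these genes, 225 (64.8%) had no KLF4 peak there in any library and 13 had one in all 10. Of all merged H3K27ac regions, counted as regions and not as genes, 74% had no KLF4 peak and 2.44% had one in all 10. This background is not matched for position, since 7.59% of all merged regions touched a promoter window. Within 2.5 kb of a protein-coding gene start, 1571 of 1838 fibroblast-only regions had no KLF4 peak, and 56 had one in both day 3 libraries. Of all merged regions, 24393 were that near, among them 40% of the 15115 with a peak in both day 3 libraries.

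Over all 737 promoter windows that touched a fibroblast-only region, 14.8% held the AP-1 letters and 47.1% the KLF letters, against 7.85% and 49.8% of all 32619 windows of the same length. The TEAD letters ACATTCC were in 7.87% of them and in 3.87% of all windows, and the TATA letters TATAAA in 16.4% and 13.7%, all counted on both strands. The median number of CpG was 5, against 7 in all windows and 24 in windows over regions with a peak in all 12 H3K27ac libraries. In the 41 windows over fibroblast-only regions with KLF4 peaks in both day 3 libraries, 87.8% held the KLF letters and the median number of CpG was 19. These shares describe letters in a window, and no test was made on them.

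Most fibroblast-only regions were narrow and modestly enriched, with a minority of strong ones. Their width ran from 241 to 17792 bp with a median of 718 bp, and together they covered 31.5 Mb. Fold enrichment, the authors' value for the best peak of a region, had a median of 4.89 in MEF replicate 1 (range 1.96 to 53) and 4.85 in replicate 2 (range 1.6 to 51.4). For all regions with a peak in both MEF libraries the medians were 6.19 and 6.15. A q-value of at most 0.01 was reached in both MEF libraries by 27427 of the 31659 (86.6%). Regions with a peak in all 12 libraries had median folds of 21.6 in both MEF libraries, and regions lost after day 3 (peaks in both MEF and all 3 day 3 libraries and none later) had 10.2 and 9.9. Among the 17493 best peaks of each MEF list, 2335 fibroblast-only regions were found, of 15235 regions that were among the best in both lists.

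**Figure D1:**
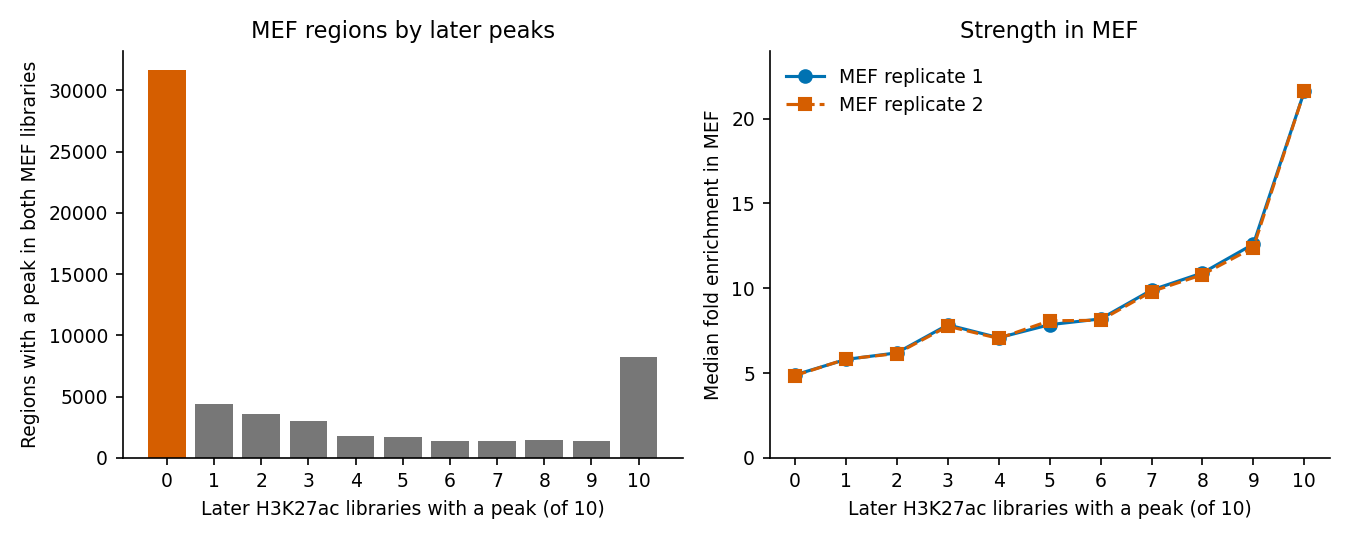
Left, number of regions with a peak in both MEF libraries by the number of later H3K27ac libraries (0 to 10) that also had one; orange marks the 31659 fibroblast-only regions. Right, median fold enrichment of the same regions in each MEF library, which was 4.89 and 4.85 with no later library and 21.6 in both with all 10.

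The bar plot by number of later libraries shows 2 peaks, at 0 and at 10 later libraries, with 31659 and 8242 regions. Between them the classes held 1337 to 4414 regions. Median MEF fold, width and nearness to gene starts were lowest at 0 and highest at 10. Width is that of the merged region, which peaks of further libraries can only widen, so its rise is in part fixed by the merging. Just outside the rule were 4414 regions with a peak in exactly 1 later library. That library was 1 of the 3 day 3 libraries in most of them (1481, 1278 and 425 regions). A day 6 library was the only one in 23, 7 and 18 regions, a day 9 library in 219 and 234, and an ESC library in 370 and 359. The strongest 3 of them lay near Ecm1, in Ece1 and near Nectin1, with MEF folds of 64.1 and 75.9, 51.8 and 57.9, and 37.6 and 38.8, and each had its single later peak in a day 3 library. At the weak end just inside, the last-ranked regions lay near Cxcl12, over Fam227b and Fgf7, and in Spag17, with folds between 2.14 and 2.48. A single day 3 peak was enough to leave out a region, whatever its MEF fold.

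The 10 best-ranked regions had MEF folds between 32 and 53, and none had a KLF4 peak in any library, as was the case for 95.5% of all fibroblast-only regions. The first, chr7:67738309-67743221, lay in Synm, which codes for the intermediate filament protein synemin, with folds of 51.1 and 51.4. The second, chr14:72881892-72889220, was 18.4 kb from Gm4606, with 52.7 and 50.7. The third, in the fibrillar collagen gene Col27a1 at chr4:63308549-63313036, had 53 and 43.9. The next were in Adam12, a metalloprotease of the cell surface (41 and 32), in the cAMP phosphodiesterase gene Pde4d (41.6 and 40.6), and 0.217 kb from Tes, which codes for the focal adhesion protein testin (48.7 and 44.6). The others lay in Spata4 (45 and 48.3), 117 kb from Wdr75 (44.8 and 45), in the Ras GTPase-activating gene Rasal2 (36.9 and 34.9), and in Srgap1, a GTPase-activating gene of the Slit-Robo pathway (46.5 and 41.1). Each of the 10 was high in both MEF libraries, at 3275 to 7787 bp wide, and none overlapped a gene start, the nearest being 6.48 kb from the region in Spata4. The nearest gene is a position, not a target.

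Fibroblast-only regions lay far from gene starts. Within 2.5 kb of a start of a protein-coding gene were 1838 of 31659 (5.81%), against 13.6% of all merged regions, 8.75% of regions lost after day 3, 9.3% of ESC-only regions (peaks in both ESC libraries and in no other), and 86.4% of regions in all 12 libraries. The median distance to the nearest start was 44.5 kb, against 35.8 kb for regions lost after day 3, 23.1 kb for ESC-only regions and 0 kb for regions in all 12 libraries. More than 50 kb away were 14828 regions (46.8%). Inside a protein-coding gene lay 15513 (49%), against 56.2% of all merged regions. A RefSeq promoter window was touched by 690 of them (2.18%), against 7.59% of all merged regions, 2.81% of ESC-only regions and 74.2% of regions in all 12 libraries. Of the 737 windows they touched, 368 were of protein-coding genes, and 347 genes had such a window (2.01% of the 17274 with one in the table). Position was nearly the same in strong and weak regions: 5.6% of the 25% with the best MEF scores and 5.56% of the last 25% were near a start. The position of a region has 1 value for the series, so no test over libraries applies.

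**Figure D2:**
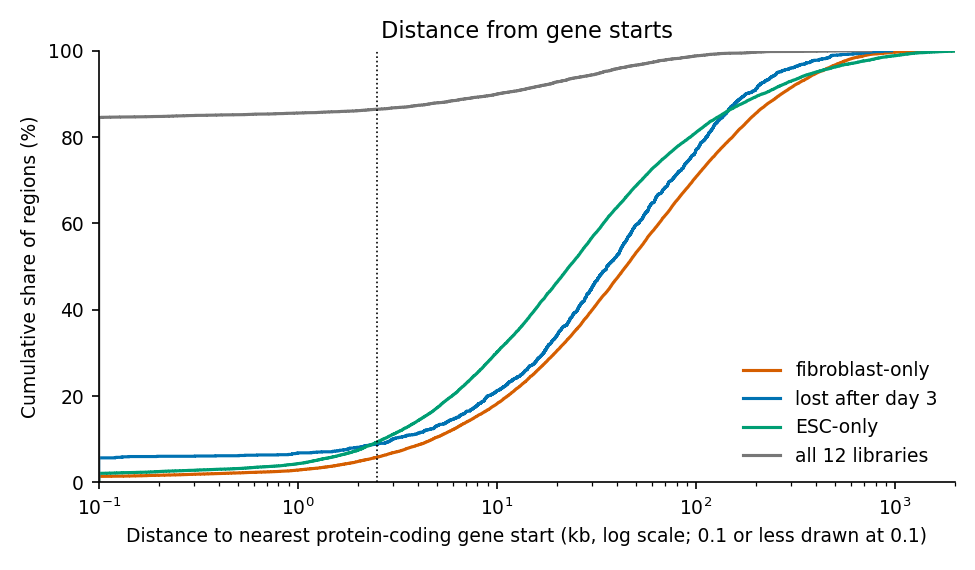
Cumulative share of regions (y axis, %) by distance to the nearest start of a protein-coding gene (x axis, kb, log scale; distances up to 0.1 kb are drawn at 0.1), for 4 classes of H3K27ac regions; the dotted line is 2.5 kb. At 2.5 kb the fibroblast-only curve is at 5.81% and that of regions in all 12 libraries at 86.4%.

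They were also clustered. Along a chromosome, the next MEF region after a fibroblast-only one was itself fibroblast-only in 65.6% of cases, and in 38.5% after any other MEF region. There were 10901 runs of neighbouring fibroblast-only regions with no other MEF region between them. Runs of at least 10 numbered 462 and held 6846 regions (21.6%), while 4577 regions stood alone (14.5%). The longest run held 45 regions over 1442.2 kb at chr3:147452568-148894785, from near Ttll7 into Adgrl2, an adhesion G protein-coupled receptor. The next held 44 regions on chromosome 18 between Lox, a collagen crosslinking enzyme gene, and Snx2, with folds up to 33.1 and 30.9. There were 3 runs of 36. Of these, 1 covered the end of Lrmda and the potassium channel gene Kcnma1, and the others touched no protein-coding gene and lay between Slc10a2 and Efnb2 and between Ebf1 and Clint1. Runs of 32 lay over the melanocyte factor gene Mitf, over the WNT inhibitor gene Dkk2, and over Lum, Kera and Epyc, a cluster of small leucine-rich matrix proteoglycans. KLF4 peaks of any library touched 3 regions of the longest run, 2 of that over Kcnma1, 1 of that over Dkk2, and 0 of the other runs named here. The share of MEF regions that were fibroblast-only ran from 42.9% on chromosome 11 to 60% on chromosome 18.

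The distance to acetylation of later stages was largest for day 6. The median distance from a fibroblast-only region to the nearest H3K27ac peak was 15.1 kb at day 3, 46.4 kb at day 6, 22.6 kb at day 9 and 23.7 kb in ESC, and day 6 had the shortest lists. A day 3 peak lay within 1 kb of 2407 regions (7.6%), and 11992 (37.9%) had none within 25 kb.

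The 10 protein-coding genes with the most fibroblast-only regions, counted in the gene and 2.5 kb to each side, were long, from 385 to 1301.8 kb. In all, 5676 of 21631 protein-coding genes (26.2%) had at least 1. Glis3, a zinc finger factor gene, had 48 of its 63 MEF regions fibroblast-only, Mecom, the EVI1 factor gene, 44 of 52, Pde4d 43 of 68, Lrmda 42 of 49, and Atxn1, the ataxin 1 gene, 40 of 52. Ltbp1, which codes for a matrix protein that holds latent TGF-beta, had 39 of 46, the calcium channel subunit gene Cacna2d3 36 of 44, the recombination repair gene Rad51b 35 of 61, the RhoGAP gene Dlc1 33 of 49, and Babam2, a subunit gene of the BRCA1-A complex, 32 of 45. KLF4 peaks of any library were absent from all but 13 of these 392 regions, as from 95.5% of all fibroblast-only regions.

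The number of H3K27ac peaks over Glis3 was 100 and 105 in MEF, 23, 18 and 10 at day 3, 0 in each day 6 library, 2 and 3 at day 9, and 24 and 30 in ESC. Every later library had fewer peaks there than either MEF library, and ESC had more than day 9. Over Mecom there were 81 and 79 peaks in MEF, 10, 11 and 9 at day 3, 0 in each day 6 library, 5 and 4 at day 9, and 4 and 3 in ESC. Mecom thus stayed low after day 3 in every library. Glis3 and Mecom, like Ltbp1 and the other genes named by this count, were chosen for their many fibroblast-only regions. Fewer peaks after MEF were thus in part fixed by the choice, and the MEF lists were also the longest.

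Over Ltbp1, at chr17:75005480-75392512, the peaks numbered 75 and 73 in MEF, 10, 12 and 7 at day 3, 1, 3 and 5 at day 6, 9 and 10 at day 9, and 3 and 4 in ESC. The merged region at the gene's start held a peak of all 12 libraries, though not every one of these peaks reached the start itself. None of its 39 fibroblast-only regions had a KLF4 peak in any library, which was also so for 95.5% of all fibroblast-only regions. Over the whole gene KLF4 had 9 and 5 peaks at day 3, 4 and 10 at day 6, 4 and 5 at day 9, and 1 to 3 in the ESC and 2i libraries. The strongest fibroblast-only region of Ltbp1 had MEF folds of 33.1 and 31.

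**Figure D3:**
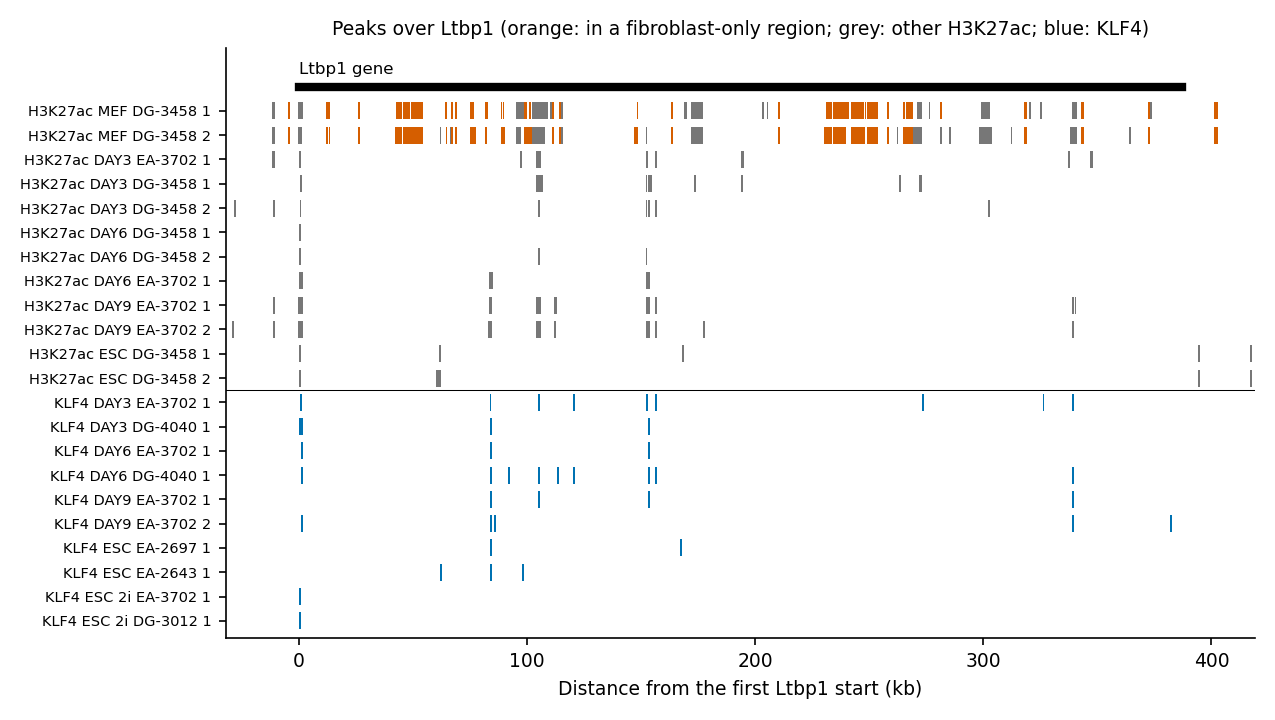
Peaks of the 22 libraries (rows, named by mark, stage, batch and replicate) over Ltbp1, with distance from the first start of the gene on the x axis (kb); orange peaks belong to fibroblast-only regions, grey peaks to other H3K27ac regions, and blue peaks are KLF4 (peaks under 0.8 kb are drawn 0.8 kb wide). MEF rows hold 75 and 73 peaks over the gene and 2.5 kb to each side, and the rows of later stages 1 to 12.

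Of all protein-coding genes, 26.2% held at least 1 fibroblast-only region, and the shares of the lists ranged from 0% to 77.8%. At least 1 was found at 9 of 12 collagen genes (75%), 14 of 19 other matrix genes (73.7%), 8 of 13 mesenchymal transcription factors (61.5%), 7 of 9 surface receptors of fibroblasts (77.8%), 8 of 15 genes of the TGF-beta pathway (53.3%) and 7 of 14 AP-1, TEAD and RUNX factors (50%). The count was 2 of 12 contractile genes (16.7%), 1 of 10 housekeeping genes (10%), 1 of 16 pluripotency genes (6.25%) and 0 of 12 epithelial genes. Among markers of other cell types it was 3 of 5 endothelial (60%), 2 of 4 neural (50%), 1 of 4 blood (25%) and 1 of 5 muscle genes (20%), so high shares were not limited to matrix and mesenchymal lists. Lists differ in gene length, with medians of 95.8 kb for collagens, 44.8 kb for other matrix genes, 16.8 kb for mesenchymal factors and 4.74 kb for housekeeping genes, and a longer gene has more room for a region. With 10 kb to each side of the start, a window of 1 length for all, the shares were 58.3% of collagens, 52.6% of other matrix genes, 76.9% of mesenchymal factors, 66.7% of the TGF-beta pathway, 88.9% of the receptors and 35.7% of AP-1, TEAD and RUNX factors, against 19.9% of all protein-coding genes. They were 16.7% of contractile, 10% of housekeeping, 12.5% of pluripotency and 16.7% of epithelial genes, the last from 0 within the genes. The endothelial list was at 0% in this window, and the neural and blood lists were at 25% each.

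For each list, the share of its own MEF regions that were fibroblast-only was also counted, and its dependence on gene length was not tested. In the matrix lists this share stood close to the 52.8% of all MEF regions. It was 46 of 83 for collagens (55.4%), 59 of 119 for other matrix genes (49.6%), 39 of 65 for mesenchymal factors (60%), 78 of 132 for the TGF-beta pathway (59.1%) and 39 of 71 for receptors (54.9%). It was 35 of 95 for AP-1, TEAD and RUNX factors (36.8%), 13 of 52 for contractile genes (25%), 3 of 14 for pluripotency genes (21.4%) and 1 of 14 for housekeeping genes (7.14%). Lists with few MEF regions had 2 of 3 for neural (66.7%), 4 of 8 for endothelial (50%) and 1 of 2 for muscle genes (50%). Blood genes had 1 of 6 (16.7%) and epithelial genes 0 of 6. High shares were thus not limited to the fibroblast lists, which had many fibroblast-only regions along with many MEF regions of other kinds. No test was made on these lists.

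**Figure D4:**
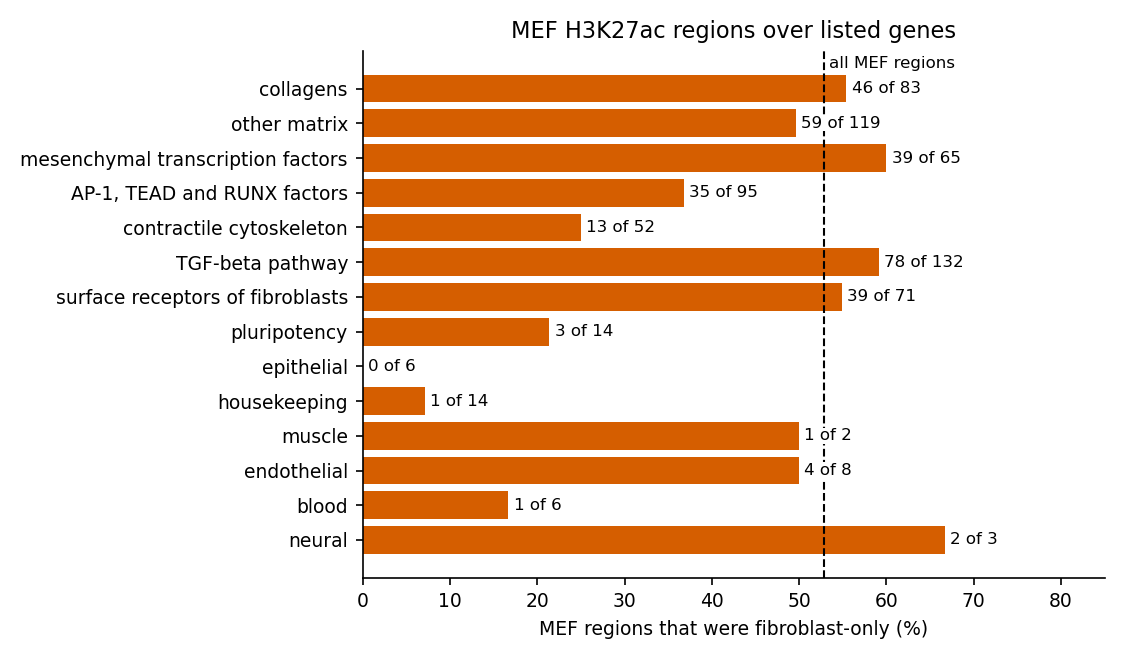
Share of the MEF regions (peak in both MEF libraries) over each list's genes that were fibroblast-only (x axis, %), with the counts beside each bar; the dashed line is the 52.8% of all MEF regions. Mesenchymal factors are at 60% and housekeeping genes at 7.14%; the muscle, endothelial, blood and neural lists rest on 2 to 8 regions each.

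Among matrix genes, Fbn2, which codes for the microfibril protein fibrillin 2, had 14 fibroblast-only regions among 15 MEF regions, and Fbn1, for fibrillin 1, had 13 among 34. Peaks over Fbn1 numbered 56 and 59 in MEF, 32, 46 and 32 at day 3, 5, 3 and 9 at day 6, 4 and 5 at day 9, and 2 and 1 in ESC, and those over Fbn2 19 and 18, then 4, 3 and 1, 2, 0 and 1, 1 and 2, and 0 and 2. Day 3 peaks were thus many over Fbn1 and few over Fbn2. The crosslinking enzyme gene Loxl2 had 8 of 13, and the tenascin C gene Tnc 4 of 9. Postn, which codes for periostin and is named after its values were seen, had all 3 of its MEF regions fibroblast-only and no H3K27ac peak in any later library. Other matrix genes without a fibroblast-only region were Fn1, Sparc, Thbs1, Vcan and Mmp2.

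Of the collagens, Col5a1 and Col12a1 had 9 each (of 12 and 14 MEF regions), and Col4a2 and Col5a2 had 8 each (of 24 and 10). Peaks over Col5a2, a chain of the type V collagen that starts fibrils, numbered 20 and 23 in MEF, 2, 3 and 2 at day 3, 0, 0 and 1 at day 6, 1 and 1 at day 9, and 0 in both ESC libraries. Col1a1, whose locus carries the cassette, had 3 of 4, and its strongest fibroblast-only region reached folds of 7.51 and 6.63 against 28.3 and 26 for the strongest MEF region of the gene. The strongest regions of the main fibrillar collagen genes were thus not fibroblast-only: Col1a2 had a single MEF region, with folds of 37.4 and 30, and it was lost after day 3. Col1a2, Col6a2 and Col11a1 had no fibroblast-only region.

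Among the mesenchymal factors, Prrx1, a homeobox gene of limb and craniofacial mesenchyme, had 12 of 16. Its peaks numbered 20 and 21 in MEF, 12, 7 and 6 at day 3, 1, 1 and 4 at day 6, 1 and 4 at day 9, and 1 and 0 in ESC. Twist2, a basic helix-loop-helix repressor gene, had 8 of 11, with MEF folds up to 20.1 and 22.3. Zeb2 and Zeb1, repressors of epithelial genes, had 7 of 11 and 4 of 7. Twist1, Snai1, Tcf21, Foxf1 and Foxd1 had none. In the AP-1, TEAD and RUNX list the osteoblast factor gene Runx2 led with 19 of 35, followed by Runx1 (6 of 15) and Tead1 (6 of 21). Fos, Fosl1, Fosl2 and Jund had 1 each, and Fosb, Jun, Junb, Atf3, Tead2, Tead3 and Tead4 none.

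In the TGF-beta pathway Ltbp1 was followed by the co-receptor gene Tgfbr3 (14 of 25), the signal transducer gene Smad3 (8 of 20) and the ligand gene Tgfb2 (7 of 9). The ligand genes Tgfb1 and Tgfb3, the receptor gene Tgfbr2, the inhibitors Smad7, Skil and Bambi, and the target gene Ccn2 had none. Among receptors, Egfr, for the epidermal growth factor receptor, had 23 of 36, with peaks numbering 53 and 55 in MEF, 21, 16 and 8 at day 3, 0, 0 and 2 at day 6, 7 and 7 at day 9, and 3 and 2 in ESC. The endothelin receptor gene Ednra had 5 of 6, the adhesion receptor gene Cd44 3 of 8, and the platelet-derived growth factor receptor genes Pdgfra and Pdgfrb 3 of 4 and 3 of 5. Thy1 and S1pr3 had none. Of the contractile genes only Cald1, for caldesmon (12 of 27), and Cnn1, for calponin (1 of 2), held any, and Acta2, Tagln, Cnn2, Myl9, Tpm1, Tpm2, Actn1, Flna, Vim and Lmna held none.

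In the other lists the counts were small. The pluripotency gene Tfcp2l1 had 3 of 4 MEF regions fibroblast-only, with folds of at most 7.42 and 5.41, beside 22 and 18 peaks over the gene in ESC. Pou5f1, Nanog, Sox2, Zfp42, Esrrb, Klf2, Klf4, Tbx3, Prdm14, Dppa3, Nr5a2, Sall4, Lin28a, Tdgf1 and Fgf4 had none. Neither did the epithelial genes Cdh1, Epcam, Cldn3, Cldn4, Cldn6, Cldn7, Krt8, Krt18, Ocln, Esrp1, Grhl2 and Crb3. B2m was the 1 housekeeping gene with a region, and Actb, Gapdh, Tbp, Hprt, Pgk1, Eef1a1, Ppia and Rplp0 had none. Single regions or pairs were at Des, Kdr, Tek, Tie1, Ptprc, Tubb3 and Nes, genes of muscle, vessel, blood and neural cells. Those at Ptprc, the leukocyte antigen CD45, and Kdr, a VEGF receptor, reached folds of 3.26 and 2.67 and of 6.14 and 7.1. Myod1, Myf5, Pax7, Myog, Pecam1, Cdh5, Cd68, Csf1r, Spi1, Sox10 and Pax3 had none.

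KLF4 was rare in fibroblast-only regions at every stage. No KLF4 library had a peak in 30222 of 31659 (95.5%), against 74% of all merged regions, and all 10 had one in 18, against 2.44% of all merged regions. The 2 day 3 libraries had a peak in 747 regions (2.36%) and 383 (1.21%), against 14.2% and 9.8% of all merged regions. The day 6 libraries had 216 (0.682%) and 200 (0.632%), and the day 9 libraries 191 (0.603%) and 214 (0.676%). The ESC libraries had 148 (0.467%) and 284 (0.897%), and the 2i libraries 321 (1.01%) and 297 (0.938%). Of all merged regions, 10.2% and 10.3% had a peak in the day 6 libraries, 10.6% and 11.3% in those of day 9, 8.04% and 12.5% in ESC, and 9.67% and 10.9% in 2i. Both day 3 libraries were above the other 8, and they differed more from each other than the lower of them did from any of the 8. Both libraries of a stage had a peak in 210 regions at day 3 (0.663%, against 8.43% of all merged regions), 111 at day 6 (0.351%, against 7.41%), 138 at day 9 (0.436%, against 9.18%), 98 in ESC (0.31%, against 7.26%) and 130 in 2i (0.411%, against 7.02%).

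From day 3 to day 9 the share changed by -0.191 percentage points per day. The exact permutation test over the 90 labelings of the 6 libraries gave p = 0.0444, or 0.0656 after Benjamini-Hochberg adjustment over the 6 tests made, which missed the threshold of 0.05. Without day 3 library EA-3702 the slope was -0.0823. The 6 reprogramming libraries had a mean of 1.03% and the 4 ESC and 2i libraries 0.829%, a difference of 0.198 points that did not pass the exact permutation test (adjusted p = 0.776). A difference between reprogramming and ESC was therefore not detectable with these libraries, and its sign turned without day 3 library EA-3702 (-0.0685).

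Where classes were compared, KLF4 was counted in windows of 500 bp at the centre of each region's best peak, since classes differ in width. Windows of fibroblast-only regions held a KLF4 peak in 0.725% on average over the 10 libraries. Windows of regions in all 12 libraries did so in 44.8%, a difference of -44.1 ± 9.6 points (SD, n = 10 libraries), below 0 in 10 of 10 libraries (exact sign-flip permutation test, two-sided, adjusted p = 0.00952; the smallest unadjusted p it can give is 0.00195). These 2 classes also differ in MEF fold and nearness to starts, and the part of either was not tested.

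Against regions lost after day 3 the difference was concentrated at day 3. At day 3 a KLF4 peak was in 20.1% and 8.94% of windows of regions lost after day 3, and in 1.8% and 0.812% of windows of fibroblast-only regions. From day 9 on, both classes were between 0.306% and 1.04%. Over all 10 libraries the difference was -2.89 ± 5.96 points (SD), below 0 in 6 of 10, which missed the threshold (exact sign-flip permutation test, adjusted p = 0.0656). By the same exact permutation test the difference passed it on whole regions, at -6.13 points (adjusted p = 0.00391), and with KLF4 peaks of 200 bp, at -2.51 (adjusted p = 0.0381). Without day 3 library EA-3702 it was -1.18. Regions lost after day 3 are wider, with a median of 2135 bp against 718 bp.

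Against ESC-only regions the differences were widest in the ESC and 2i libraries. The mean share over 10 libraries was 3.69% in windows of ESC-only regions, a difference of -2.96 ± 3.41 points (SD), below 0 in 9 of 10 libraries, day 3 library EA-3702 being the exception at 0.0752 (exact sign-flip permutation test, adjusted p = 0.00952). In the 6 reprogramming libraries fibroblast-only minus ESC-only averaged -0.529 points, and in the 4 ESC and 2i libraries -6.61 points. In windows of ESC-only regions the mean share of the 2 libraries was 1.4% ± 0.465 (SD) on day 3, 1.1% ± 0.286 on day 6 and 1.45% ± 0.164 on day 9. It was 6.06% ± 3.13 for ESC and 8.42% ± 1.26 for 2i. In windows of fibroblast-only regions it was 1.31% ± 0.701, 0.526% ± 0.0871, 0.529% ± 0.0469, 0.527% ± 0.25 and 0.736% ± 0.0804 at the same stages. The change of 6.08 points passed the exact permutation test over 210 labelings (adjusted p = 0.00952; the smallest unadjusted p is 0.00476). All 6 reprogramming libraries had differences between -1.01 and 0.0752, and all 4 ESC and 2i libraries between -8.63 and -3.5, so the groups did not overlap. At day 3 the differences were 0.0752 and -0.259. The reprogramming libraries and the ESC and 2i libraries also differ in genotype, treatment and, in part, sorting and batch, and the part of each cannot be told apart.

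**Figure D5:**
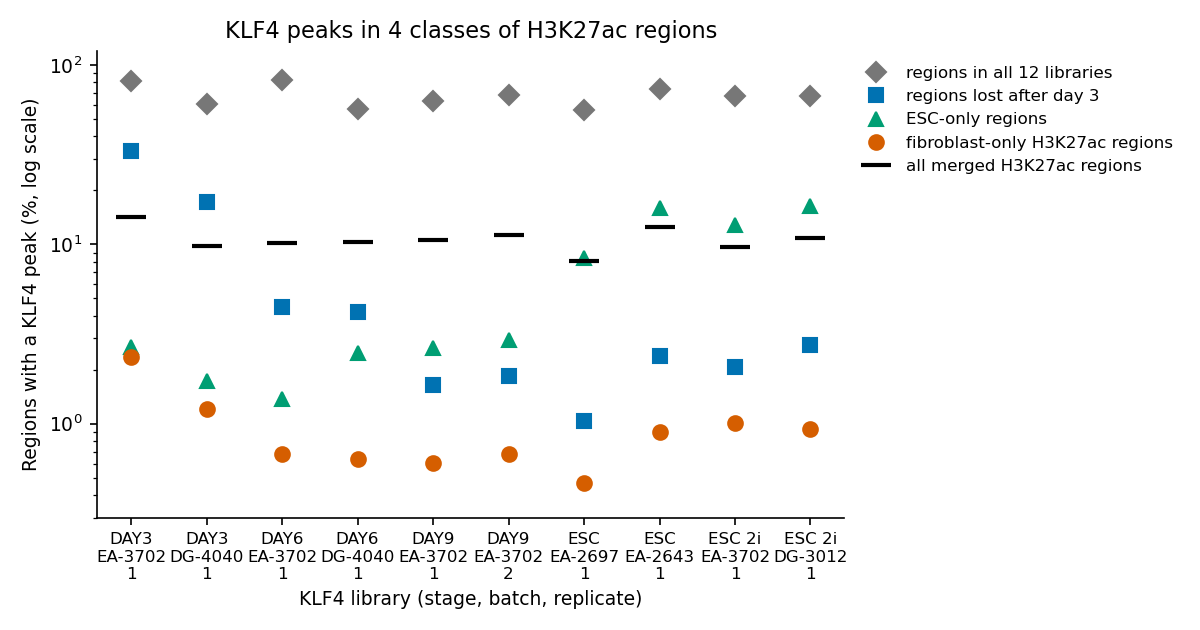
Share of regions with a KLF4 peak (y axis, %, log scale; whole regions) in each of the 10 KLF4 libraries (x axis) for 4 classes of H3K27ac regions, with a black bar for all merged regions. On whole regions, fibroblast-only regions (orange) are the lowest class in every library, between 0.467% and 2.36%. Regions lost after day 3 are wider (median 2135 against 718 bp). In equal 500 bp windows, regions lost after day 3 were lower in both day 9 libraries, ESC library EA-2697 and 2i library EA-3702. In such windows ESC-only regions were lower in day 3 library EA-3702.

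Within the set, KLF4 was more frequent in strong regions and near gene starts. In day 3 library EA-3702 it was in 3.26% of the 25% of regions with the best MEF scores and in 1.78% of the last 25%, and in day 3 library DG-4040 in 1.95% and 0.783%; strong regions are wider, with medians of 1684 and 481 bp. Near a start (within 2.5 kb) the shares were 7.34% and 3.75% at day 3, and farther away 2.05% and 1.05%. In the other 8 libraries they were 3.21% to 6.91% near a start and 0.298% to 0.711% farther away. The KLF4 peaks in fibroblast-only regions were a little weaker than their lists, with median folds of 3.96 against 4.33 and 2.93 against 3.19 in the day 3 libraries. In all 10 libraries the median fold inside was below that of the list.

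The 5 regions with KLF4 in all 10 libraries and the best MEF ranks lay at gene starts or within 0.204 kb of one. They were at Col5a3, at Cdc42ep2, an effector of the GTPase CDC42, at Plxnd1, a semaphorin receptor, at the forkhead factor gene Foxd2, and at Limk1, a kinase that regulates actin through cofilin. At Limk1 the KLF4 folds were 10.9 and 4.59 at day 3, 20 and 7.85 at day 6, 11 and 13.4 at day 9, 7.32 and 3.53 in ESC, and 19.6 and 10.4 in 2i, against MEF H3K27ac folds of 6.35 and 8.82. At Col5a3 they were 5.04 and 3.25 at day 3, 6.83 and 4.33 at day 6, 4.19 and 3.05 at day 9, 5.39 and 5.11 in ESC, and 7.62 and 10.7 in 2i. Both had KLF4 peaks in every library in which KLF4 was measured. Of the 26 regions with KLF4 in both day 3 libraries and all 4 ESC and 2i libraries, 19 (73.1%) were within 2.5 kb of a start. Of all merged regions, 3% had this pattern, against 0.0821% of fibroblast-only regions, and 68.3% of them were near a start, so the share near a start was close to the background.

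Other regions had KLF4 peaks at day 3 and none in ESC or 2i. Of the 210 regions with a peak in both day 3 libraries, 134 had none in any ESC or 2i library (0.423% of fibroblast-only regions, against 2.56% of all merged regions). Of these 134, 10 (7.46%) were near a start, against 8.63% of all merged regions with this pattern. The reverse pattern, a peak in all 4 ESC and 2i libraries and in no day 3 library, was found in 15 regions (0.0474%, against 0.941% of all merged regions), of which 1 (6.67%) was near a start, against 23.6% of all merged regions with it. The best-ranked 5 of the 134 lay 40.4 kb from Cysltr2, in Wdr93, in Gramd4, 406 kb from Trps1, a GATA-type repressor gene, and 375 kb from Nyap2. The region in Gramd4, chr15:86065856-86069157, had day 3 KLF4 folds of 6.45 and 3.14, no KLF4 peak in the other 8 libraries, and MEF H3K27ac folds of 23.5 and 17.2. The region far from Trps1, chr15:50246644-50248368, had 4.67 and 3.46 at day 3 and 3.09 in day 6 library EA-3702, with MEF folds of 20.7 and 20.8. In these 5 regions the MEF folds ran from 15.8 to 24.7, and the KLF4 folds at day 3 from 2.66 to 6.45.

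Of 1005 annotated microRNA hairpins, 12 touched a fibroblast-only region and 163 any MEF region. Fibroblast-only regions thus held 7.36% of the hairpins in MEF regions, while they were 52.8% of these regions by number. By length they made up less, covering 31.5 Mb of the 102 Mb of all MEF regions. Mature sequences of 5 are shown, with the seed (bases 2 to 8) in capitals, because they show which microRNA loci the set reaches; they were chosen after the values were seen. The sequences are from RefSeq, and the mature RNA was not measured here.
miR-206-3p: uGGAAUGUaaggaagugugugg
miR-26a-5p: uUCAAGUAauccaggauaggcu
miR-146a-5p: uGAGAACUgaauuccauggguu
miR-344-3p: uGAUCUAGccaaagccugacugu
miR-344c-3p: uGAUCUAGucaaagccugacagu

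The seeds of miR-344-3p and miR-344c-3p were the same, and their hairpins lay in separate fibroblast-only regions on chromosome 7. The region at Mir206, a microRNA of skeletal muscle, had MEF folds of 5.8 and 5.75, that at Mir146, a feedback regulator of inflammatory signalling, 7.51 and 5.75, and that at Mir26a-1 7.17 and 4.21. The regions at Mir344 and Mir344c had 3.42 and 3.56, and 8.87 and 6.47. None of these 5 regions had a KLF4 peak in any library, as was so for 95.5% of the whole set. Among the hairpins not shown, the regions at Mir6985 and Mir7228 had KLF4 peaks in 4 libraries each. Their MEF folds were higher, at 19.2 and 18.9 for Mir6985 and 14.5 and 16.8 for Mir7228. The remaining hairpin regions had no KLF4 peak.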

How the data were processed

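H3K27ac (12 libraries) and KLF4 (10 libraries) were measured by ChIP-seq of mouse cells. Peak lists were deposited separately for each library. In the lists the authors deposited, a peak has a score and a fold over background as a ratio. It also has its p-value and q-value, deposited as −log10. Per the submitters' processing notes, cutadapt 1.8.1, Bowtie2 2.2.5, MACS2 2.1.1 and deepTools 2.3.6 and the build mm10 were used, with no role given. Input libraries were not used here.

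The lists hold no summit, so 500 bp windows were centred on the midpoint of the best-scoring MEF peak (ESC peak for ESC-only regions) where the plan named the summit. Gene positions came from RefSeq GRCm38.p6, the assembly behind mm10. Starts were found in the promoter table for 17274 of 21631 protein-coding genes, and both gene ends stood in for the rest. All 150 listed genes were found. Genes were named by rank: up to 4 per list and those with none, 10 regions by mean MEF score rank, 10 genes by count, and 5 regions for each KLF4 pattern. Not every gene of the lists is reported by name here. Promoters on chromosome 18 were not considered for printing. Of the counts, overlaps and list shares none was tested.

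The 6 tests are two-sided exact permutation tests on 1 value per library (all labelings, or sign flips), adjusted by Benjamini-Hochberg, with 0.05 as threshold; the code was tested on simulated lists. Alternatives were a q-value limit of 0.01, the best 50% or the same number of best peaks per list (17493 for H3K27ac and 21129 for KLF4), other overlap rules and window sizes, a batch block, and leaving out each library. The regions and lists were chosen with earlier results of these data known. Python 3.11.15 with numpy 2.4.6, pandas 2.3.3 and scipy 1.17.1 was used. Replicate lists shared at most 15 identical intervals. The precision comes from the spread between libraries, since depth is not given.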

Additional observations from a re-analysis of the deposited data

Results flagged for a closer look

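The gap in KLF4 share between fibroblast-only and ESC-only regions differed between reprogramming and ESC libraries by 6.08 percentage points, from -6.61 in the 4 ESC and 2i libraries to -0.529 in the 6 reprogramming libraries. ESC-only windows had stage means of 1.1% to 1.45% in reprogramming and 6.06% and 8.42% in ESC and 2i, and fibroblast-only windows 0.526% to 1.31% over all stages. It is listed here because the test of the difference itself passed the threshold (exact permutation test, adjusted p = 0.00952). The 6 libraries and the 4 libraries also differ in genotype and, in part, in sorting and batch. All 6 had doxycycline at 1 µg/ml and ascorbic acid at 50 µg/ml. The 4 came from line V6.5 with neither listed, and the 2i libraries among them had MEK and GSK3 inhibitors. The part of each cannot be told apart. Groups hold 2 or 3 libraries, too few for a search for single libraries far from the others.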

How the results depend on the processing

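The number of fibroblast-only regions was 17090 with the best 50% of each list, 4497 with the same number of best peaks in each list (29.4% of 15276 MEF regions), 57234 with a peak in at least 1 MEF library, and between 31666 and 51019 without single libraries, the high values being 51019 without MEF replicate 1 and 50702 without MEF replicate 2. A q-value limit of 0.01 gave 31112, no later peak within 1 kb 27779, an overlap of 50% of the shorter interval 46347, and batch DG-3458 alone, an alternative chosen after seeing the data, 34767. The slope over days passed the threshold with the same number of best KLF4 peaks (-0.0784, adjusted p = 0.0333, exact permutation test). It was -0.251 with batch as a block (adjusted p = 0.0625, exact permutation test), and its highest adjusted p was 0.213, with KLF4 peaks at a q-value of at most 0.01. Without single libraries the slope ran from -0.247 to -0.0823, and reprogramming minus ESC from -0.0685 to 0.283. The difference from regions lost after day 3 passed it on whole regions (-6.13) and with KLF4 peaks of 200 bp (-2.51), and without single libraries it ran from -3.25 to -1.18, the first, without 2i library EA-3702, passing it (adjusted p = 0.0469, exact permutation test). The differences from regions in all 12 libraries and from ESC-only regions, and the change of the latter, kept direction and call in all 15 alternatives each, at -66.9 to -31.8, -5.79 to -1.63 and 3.3 to 11.3 points. The share of endothelial genes with a region was 60% in the genes and 0% within 10 kb of the start. The cause of these shifts was not tested. The share near a gene start was 2.86% at 1 kb and 18.2% at 10 kb. No paired analysis was possible because the KLF4 groups share fewer than 2 replicate numbers, so none was made by replicate number. Day 3 and day 6 share batches, which the batch block above uses, and the sign-flip tests compare classes within each library.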
